A study of Polistes metricus with 16 samples.

Results

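In the brains of Polistes metricus paper wasps, 73 of 127674 transcript identifiers were nearly absent from foundresses and present in several workers. They were chosen by counts: an identifier was taken if its counts summed to 8 or fewer over the 8 foundress libraries and if at least 4 of the 8 worker libraries held 3 or more. Up to 150 were to be kept, ranked by median worker CPM (the count divided by the library total, in the usual CPM unit), and only 73 met the rule, so all of them are described. Because worker and foundress counts chose the members, every difference between castes given for them is a description and is not tested.

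The data are RNA-seq counts from 16 adult female brains, 1 library per wasp, in 4 groups of 4. Foundresses trained to simple patterns were collected in May and foundresses trained to Polistes fuscatus faces in June. Adult workers had been kept either on a foreign nest of their own species (conspecific) or on a nest of P. fuscatus (allospecific), and all were trained to P. fuscatus faces. Collection of the workers fell in July, except for MW21 in June. Every wasp had 40 maze trials and was killed 30 minutes after the last. Their age is given only as adult, and no wasp was left untrained. Only workers are labelled as swapped between nests, and all but MW21 were collected after the foundresses. Caste, season and rearing on a foreign nest thus cannot be told apart. Among foundresses, training went with the month, and no worker was trained to patterns.

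Paper wasp foundresses are mated females that overwinter and start nests in spring, while workers are their daughters, who emerge in summer and mostly forage and tend brood. Both castes arise from the same genome, and workers keep the ability to reproduce, so caste differences in the brain are known mainly as differences in how strongly transcripts are used. A transcript set assembled from short reads also holds many fragments, rare variants and low-level RNAs, and a gene can be spread over several identifiers. The table does not pair identifiers with gene names, so the members have no known function here, their sequences were not used, and brain markers could not be checked. Identifiers are given for the first 2 members by median worker CPM, and the others are called by their rank in that order.

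No member was fully absent from foundresses. The lowest summed foundress count was 2, over 161964710 counts in the 8 foundress libraries, and the median member had 7. The members had counts in 2 to 7 of the 8 foundresses, and 27 of the 73 had 3 or more counts in at least 1 foundress. No identifier of the whole table had 3 or more counts in 4 workers and 0 or 1 count over all foundresses. In workers the summed counts ran from 12 to 273 with a median of 20, over 143090119 counts. Of the 73 members, 57 reached 3 counts in exactly 4 workers, 11 in 5, 3 in 6 and 2 in 7, and none in all 8. At least 1 worker had a count of 0 in 51 members.

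**Figure D1:**
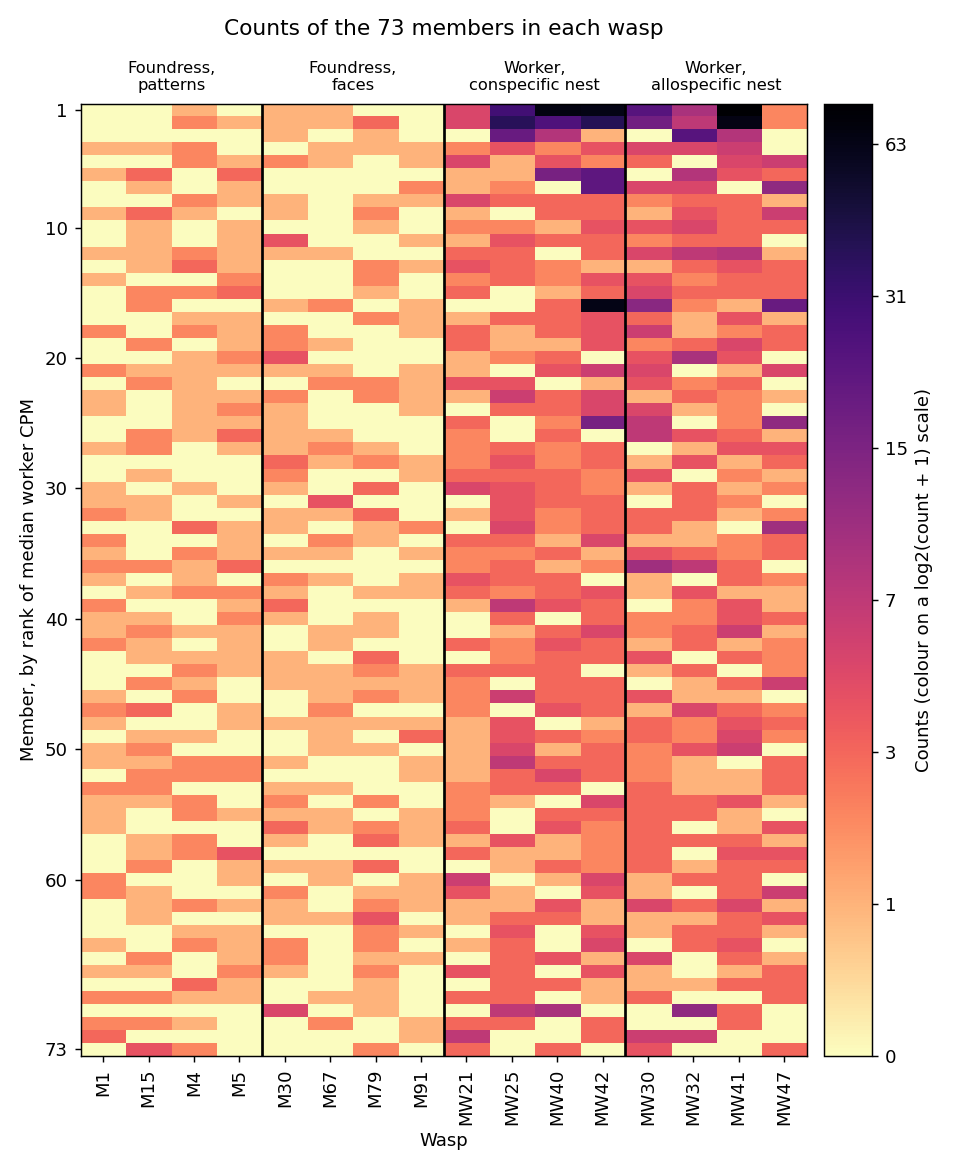
Counts of each of the 73 members (rows, by rank of median worker CPM) in each of the 16 wasps (columns, grouped by caste and training or nest), with colour on a log2(count + 1) scale. Counts over 10 stand in few cells, all in workers and in 8 of the rows, while foundress cells hold at most 5 counts.

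The median member had a median worker level of 0.138 CPM. This is below the level of 3 counts in any worker library, which ran from 0.146 CPM in MW30 to 0.201 CPM in MW40. Only 2 members had a median worker level over 0.3 CPM. Summed worker over summed foundress counts, each per total, ran from 1.70-fold to 103-fold with a median of 3.23-fold. Workers held 46.9% of all counts in the table. They held 60.0% to 98.9% of the counts of a member, with a median of 74.1%. Among the 31336 identifiers whose total counts lay in the range of the members (20 to 276), the median worker share was 45.8% and the range from the 5th to the 95th percentile was 27.5% to 60.9%. The members are 0.233% of those identifiers, taken from the edge of that distribution by the rule.

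**Figure D2:**
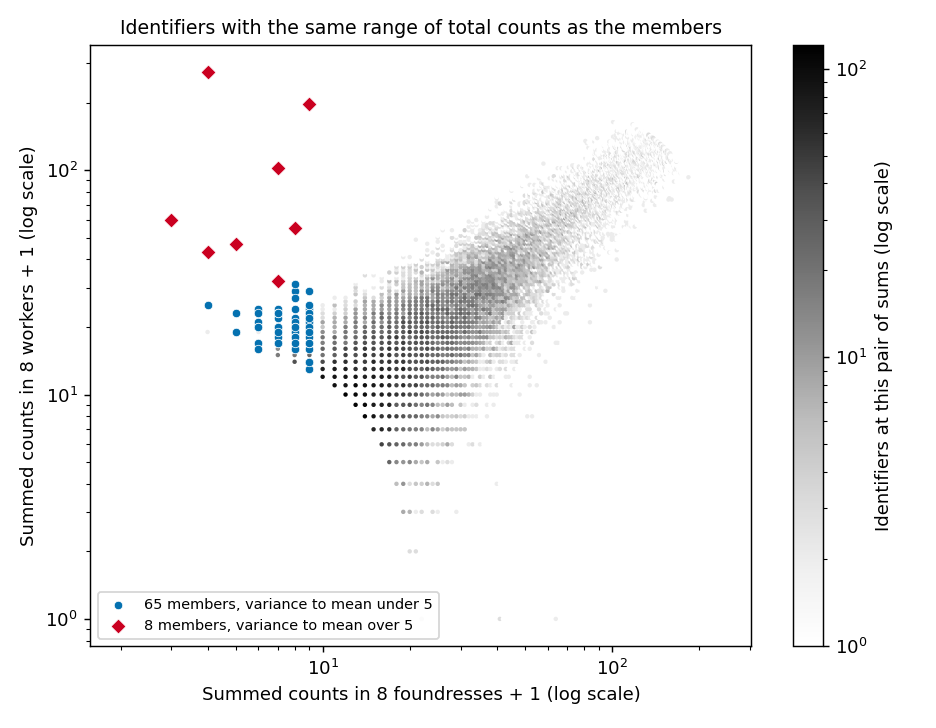
Summed counts in the 8 foundresses (x axis) and the 8 workers (y axis), both plus 1 on log scales, for the 31336 identifiers with total counts of 20 to 276, with grey for the number of identifiers at each pair of sums. Blue circles are the 65 members whose counts varied little among workers and red diamonds the 8 that varied most. The circles adjoin the grey cloud, and the diamonds lie at its upper edge or above it, as do some identifiers that are not members.

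The limits of the rule fell within a continuous range of counts. The worker criterion was met by 26 identifiers with a foundress sum of exactly 8, which are members, and by 32 with a sum of 9, which are not. Their median worker sums were 19.5 and 20 counts. With 8 or fewer foundress counts, 57 identifiers reached 3 counts in exactly 4 workers and are members, and 145 did so in exactly 3 workers and are not. Their median worker sums were 19 and 15 counts. When all libraries were thinned to 14949149 counts, the lowest total, 105 identifiers met the rule, and 27 of the 73 were among them.

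The same rule with the castes exchanged, low in workers and present in foundresses, was met by 550 identifiers. At the equal depth of 14949149 counts it was met by 314, against 105 for the rule as used here. The stricter limits that follow were applied at full depth, where the foundress libraries together held more counts than the worker libraries. With at least 6 of 8 wasps required to reach 3 counts, 71 identifiers met the exchanged rule and 5 met this one, those of ranks 1, 2, 8, 12 and 15. With 5 counts required in at least 4 wasps, 55 met the exchanged rule and 4 met this one, those of ranks 1, 2, 3 and 7. With all 8 wasps required, 7 met the exchanged rule and 0 this one. These differences were not tested. At equal depth, foundress libraries held counts for 87022 to 93283 identifiers and worker libraries for 81374 to 86236.

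The members differed in how evenly workers carried them. Evenness was measured as the variance of the counts among the 8 workers over the value that their totals alone would give, for which counting error alone gives about 1. The median was 1.28 over the members. In 65 members it lay between 0.158 and 3.33, and in the other 8 between 5.83 and 33.3. The dividing value of 5 was chosen after these values were seen. Members under it are called even here, although their ratios reached 3.33, against about 1 for counting error alone. Of the 9209 identifiers with total counts in the range of those 65 (20 to 37), 0.662% had a ratio over 5, and their median was 1.06. Of the 22501 identifiers with total counts in the range of the other 8 (37 to 276), 3.17% had a ratio over 5.

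The 65 even members had few counts anywhere. Their summed worker counts ran from 12 to 30 with a median of 19, and their summed foundress counts from 3 to 8 with a median of 7. The highest count of an even member in any library was 10. Per total count, workers had 1.70-fold to 9.06-fold the foundress level, with a median of 3.07-fold. Together the 65 held 2.76 ± 0.603 CPM in foundresses (SD, n = 8) and 8.93 ± 1.24 CPM in workers (SD, n = 8). The lowest worker was MW21 with 7.24 CPM and the highest MW41 with 11.0 CPM, and the foundresses ran from 1.81 CPM in M67 to 3.66 CPM in M4. Worker and foundress sums did not overlap. The choice of members favours this, so nothing is read from it.

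Summed over all 73, the members held 3.17 ± 0.497 CPM in foundresses trained to patterns and 2.82 ± 0.793 CPM in those trained to faces (SD, n = 4 each). They held 15.6 ± 5.59 CPM in workers from conspecific nests and 13.8 ± 4.78 CPM in those from allospecific nests (SD, n = 4 each). Most of the spread among workers came from the 8 uneven members, which were set apart by their spread among these same workers. Their summed counts ran from 15 in MW21 to 224 in MW42, while those of the 65 even members ran from 135 in MW21 to 178 in MW41. MW21, the worker collected in June, had the lowest worker value of both sums. With 1 such worker, its month cannot be told apart from the wasp itself. In these whole-brain libraries fewer cells that carry a transcript and less of it per cell cannot be told apart.

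**Figure D3:**
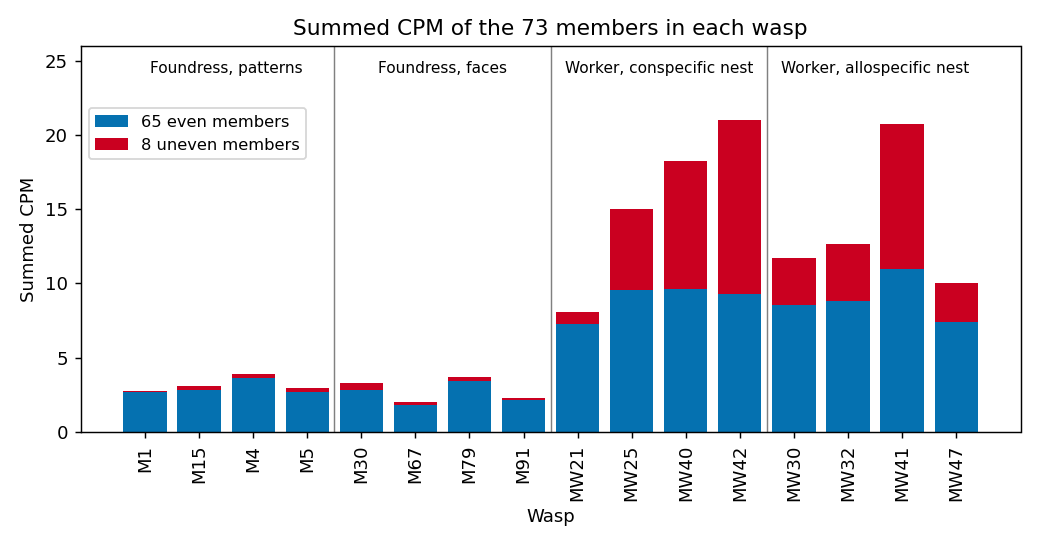
Summed CPM of the members in each wasp, as bars from 0, with the 65 even members in blue and the 8 uneven members in red. Blue parts of the worker bars lie between 7.24 and 11.0 CPM, whereas the red parts differ widely among workers of the same nest group and are nearly missing in MW21 and in foundresses.

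The 2 members with the highest median worker level were PmetTSAr2.0-105311, at 1.39 CPM, and PmetTSAr2.0-008229, at 1.25 CPM. They were the only 2 members to pass edgeR's filter on low counts, through workers alone. PmetTSAr2.0-105311 had 1 count in each of M4, M30 and M67 and 0 in the other 5 foundresses. In workers it had 76 counts in MW41, 66 in MW40, 63 in MW42, 29 in MW25, 23 in MW30, 9 in MW32, 5 in MW21 and 2 in MW47. Every worker lay above every foundress in CPM, but workers themselves ranged from 0.104 CPM in MW47 to 4.70 CPM in MW41. Per total count the workers together stood 103-fold above the foundresses, which rests on 3 foundress counts. The exact 95% interval of 34.9 to 503 covers counting error only, while the variance ratio among workers was 31.1. The rule limited the foundress counts, so the interval is no test between castes.

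PmetTSAr2.0-008229 had 8 counts in foundresses, 3 of them in M79, 2 in M4 and 1 each in M5, M30 and M67. In workers it had 64 counts in MW41, 39 in MW42, 38 in MW25, 25 in MW40, 17 in MW30, 7 in MW32, 5 in MW21 and 2 in MW47. MW47, at 0.104 CPM, lay below M79, at 0.151 CPM, so the castes overlapped. The workers together stood 27.9-fold above the foundresses per total count (exact 95% interval 13.9 to 65.5, counting error only). The variance ratio among workers was 21.2, and this interval too is no test between castes.

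Both members put the workers in much the same order. MW41 was highest for both, MW30, MW32, MW21 and MW47 were the lowest 4 in the same order, and MW25, MW40 and MW42 lay between. Across the 8 workers their log2(CPM + 0.1) values correlated with Pearson's r = 0.957 (exact two-sided permutation p = 0.000794) and Spearman's rho = 0.905 (exact two-sided permutation p = 0.00456). This was the only pair of members tested in this way. Both were chosen by the level of their counts in these same workers, though not by the order of the workers. Without MW47 and MW21, the workers farthest from the median of PmetTSAr2.0-105311, r was 0.876 over the other 6. Within the nests r was 0.891 among the 4 conspecific and 0.997 among the 4 allospecific workers, which are too few for a test. The identifiers lie 97082 apart in the table, which does not say whether they come from the same gene. In the same workers the most abundant identifier of the table was at 2671 CPM in MW41, 8317 in MW40, 20689 in MW42, 6932 in MW25, 6637 in MW30, 23234 in MW32, 35343 in MW21 and 13879 in MW47. MW41, highest for both members, had the lowest of these levels, and MW21 the highest. Other workers did not follow this order: MW47, lowest for both members, lay between them. MW30, among the lowest 4 for both members, had the next lowest level after MW41. The part of this in the members' levels was not tested.

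Of the 10 identifiers around PmetTSAr2.0-105311, 5 on either side, 3 had at least 40 worker counts, and none of these 3 correlated with it above 0.9 across workers. The other 7 had at most 6 worker counts each and could not be compared with it. Around PmetTSAr2.0-008229 no identifier had as many as 40 worker counts.

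**Figure D4:**
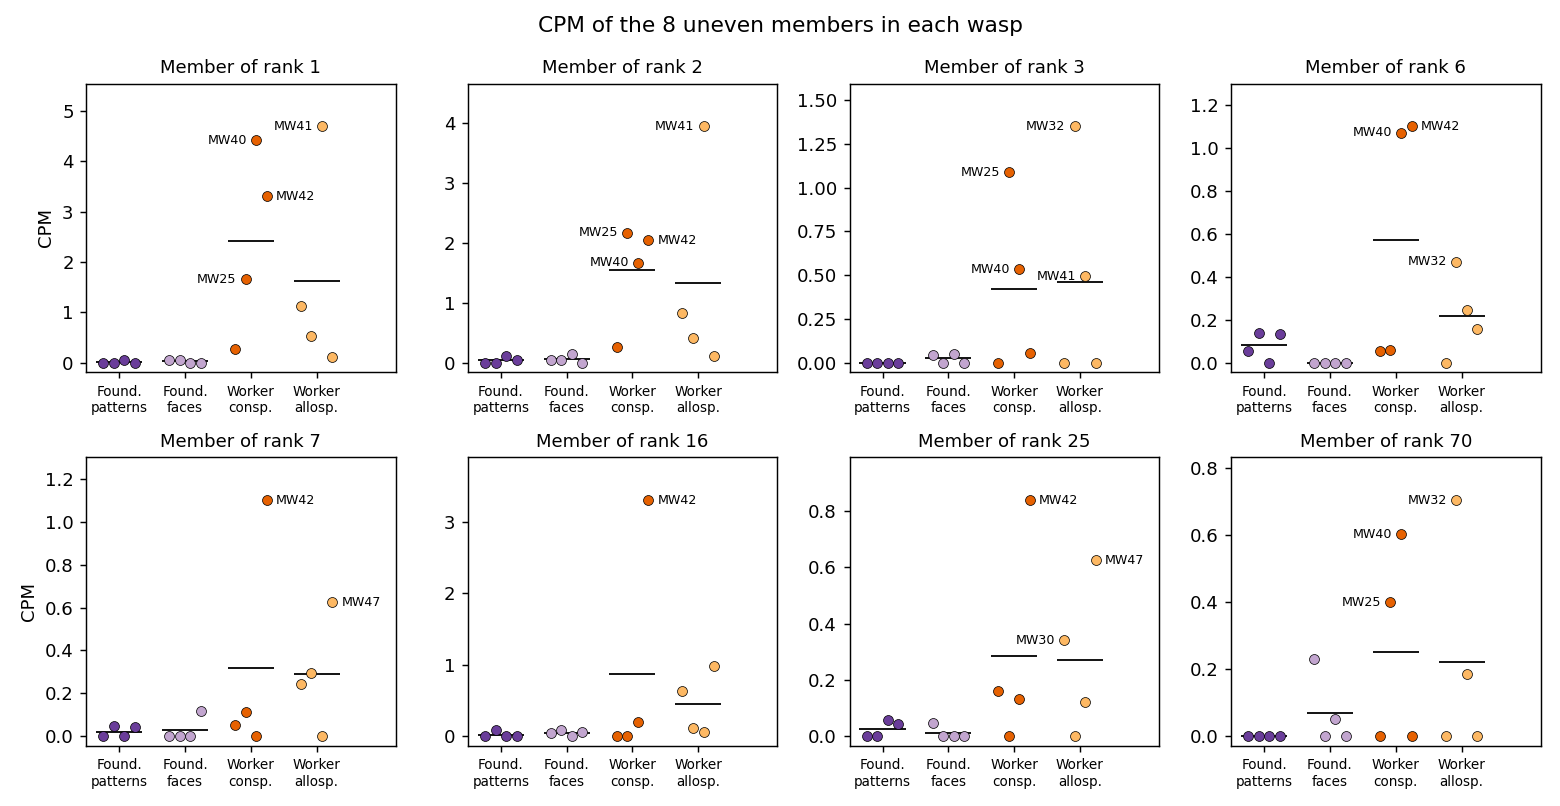
CPM of the 8 members with the most uneven worker counts, in each wasp (points) by group, with the group mean as a line and the wasps over 30% of the panel's highest value labelled in the worker groups. Levels are on the linear scale and differ between panels. High workers are found in both nest groups, and different members share the same high workers.

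The members of ranks 16, 25 and 7 were highest in MW42 and next in MW47. At rank 16 the member had 63 counts in MW42, 19 in MW47, 13 in MW30, 3 in MW40, 2 in MW32, 1 in MW41 and 0 in MW21 and MW25. Its foundress counts were 2 in M15, 2 in M67 and 1 each in M30 and M91. At rank 25 the member had 16 counts in MW42, 12 in MW47, 7 in MW30, 3 in MW21 and 2 each in MW40 and MW41, with 3 counts in foundresses. At rank 7 the member had 21 counts in MW42, 12 in MW47, 5 each in MW30 and MW32, 2 in MW25 and 1 in MW21, with 4 counts in foundresses. MW42 came from a conspecific nest, and MW47 and MW30 from allospecific nests. For the members of ranks 16 and 25, the 3 wasps MW42, MW47 and MW30 held 94.1% and 83.3% of all worker counts.

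Some neighbours of the members of ranks 16 and 7 stood high in MW42, MW47 and MW30, and at higher levels than the members. The identifier directly after the member of rank 16 stood at 13.6 CPM in MW42, 7.81 in MW47 and 3.75 in MW30, and at 0.235 to 0.458 CPM in the other 5 workers. Its foundress levels were 0.0438 to 0.688 CPM, from 36 counts in all. It was the only one of the 7 neighbours with at least 40 worker counts to correlate above 0.9 with the member of rank 16 across workers. Around the member of rank 7, the identifier directly before it and the next 3 after it were highest in MW42, next in MW47 and then in MW30, whereas the member had as many counts in MW32 as in MW30. None of the 7 neighbours of this member with at least 40 worker counts correlated with it above 0.9. The identifier 3 places after it reached 23.9 CPM in MW42, 13.2 in MW47 and 5.94 in MW30, against 0.322 to 0.865 CPM in the other 5 workers and 0.0926 to 0.918 CPM in foundresses. The identifier directly after it reached 22.9 CPM in MW42, 12.7 in MW47 and 4.43 in MW30, against 0.286 to 0.556 CPM in the other 5 workers. None of these 5 neighbours was a member, because each had 22 to 80 foundress counts. Workers held 85.3% to 93.5% of their counts. Neighbouring identifiers may be fragments of the same gene, and reads may be shared between them. These neighbours were chosen after their values were seen. Around the member of rank 25 no identifier had as many as 40 worker counts.

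**Figure D5:**
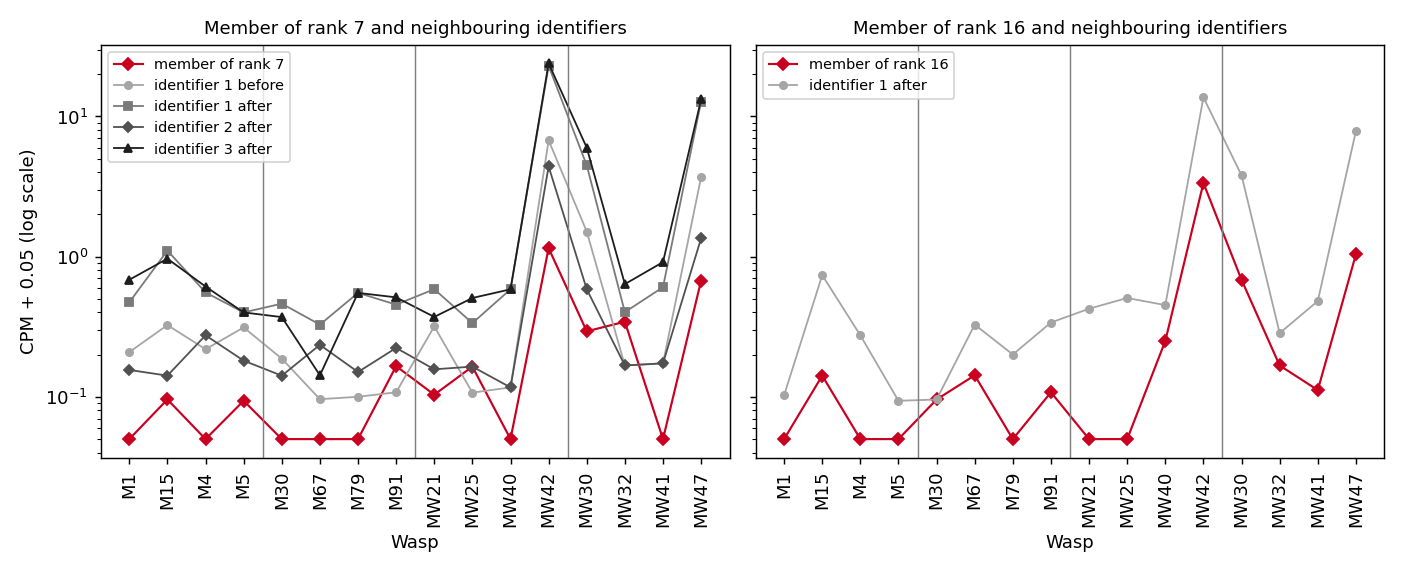
CPM plus 0.05 on a log scale in each of the 16 wasps, for the members of ranks 7 (left) and 16 (right), in red, and the neighbouring identifiers that were high in MW42, MW47 and MW30, in grey, with grey vertical lines between the 4 groups in the order foundresses with patterns, foundresses with faces, conspecific workers and allospecific workers. MW42, MW47 and MW30 stand above the other 13 wasps in every neighbour, and the other 5 workers lie no higher than the highest foundress.

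The members of ranks 3 and 70 had another set of high workers. That of rank 3 had 23 counts in MW32, 19 in MW25, 8 each in MW40 and MW41, 1 in MW42 and 0 in MW21, MW30 and MW47. Its only foundress counts were 1 each in M30 and M79. That of rank 70 had 12 counts in MW32, 9 in MW40, 7 in MW25, 3 in MW41 and 0 in MW21, MW42, MW30 and MW47. Of its 6 foundress counts, 5 were in M30 and 1 in M79. The same 4 workers, taken from both nests, and the same 2 foundresses thus carried both members. Foundress M30, at 5 counts of the member of rank 70, lay above 5 of the 8 workers. Only 1 neighbour of the member of rank 3 had at least 40 worker counts, and it did not correlate above 0.9, while that of rank 70 had no such neighbour.

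The member of rank 6 was highest in MW42, with 21 counts, and MW40, with 16, and had 8 in MW32, 4 in MW41, 3 in MW47, 1 each in MW21 and MW25, and 0 in MW30. Of its 7 foundress counts, 3 each were in M15 and M5 and 1 in M1.

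Among the even members, those of ranks 10 and 14 had every worker above every foundress in CPM, as had PmetTSAr2.0-105311. These 3 of 73 stand beside 12 of the 31336 identifiers in the same range of totals (0.0383%). The rule used that comparison, so nothing is read from the count. The member of rank 10 had 1 to 5 counts in each worker and at most 1 in a foundress, and the member of rank 14 had 2 to 4 in each worker and at most 2 in a foundress.

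Rearing on a conspecific or an allospecific nest is a comparison the rule did not use. PmetTSAr2.0-105311 stood at 2.41 ± 1.82 CPM in conspecific and 1.61 ± 2.10 CPM in allospecific workers (SD, n = 4 each). PmetTSAr2.0-008229 stood at 1.54 ± 0.874 CPM in conspecific and 1.32 ± 1.78 CPM in allospecific workers (SD, n = 4 each). Values of the nest groups overlapped widely for both, with the highest and the lowest worker both from allospecific nests. Allospecific over conspecific, edgeR's quasi-likelihood fit gave a log2 fold change of -0.65 ± 0.77 (SE) for PmetTSAr2.0-105311 and -0.30 ± 0.73 (SE) for PmetTSAr2.0-008229, each with an adjusted p of 1.00. Single workers moved these values strongly. Without MW41 they were -2.02 and -1.76, and without MW47 they were -0.25 and 0.093, so that the second changed sign, each again with an edgeR adjusted p of 1.00. By limma voom, with all workers, they were -1.20 and -1.05. None of the 55226 transcripts tested was called (0%), while 1264 had an unadjusted p under 0.05, limma voom called 0 and DESeq2 called 1, which is no member. With standard errors this large, differences of several fold in these 2 members could go undetected with 4 wasps a group.

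With no filter on low counts, 0 of the 73 members were called between the nests (0% of all 126759 identifiers). By edgeR 0 members had an unadjusted p under 0.05, while 3016 of the 126759 identifiers had one. At that share few would be found among 73, so nothing is read from the 0. The lowest edgeR adjusted p among the members was 0.991. Of the 73, 33 had a higher mean log2 CPM in allospecific and 40 in conspecific workers. The differences ran from -0.97 to 0.75, with a median of -0.05. They used a prior count of 2, which pulls counts as low as these toward no difference. The edgeR fit with no filter gave log2 fold changes from -1.52 to 1.37 for the members. The median difference was -0.00398 over all tested transcripts and -0.04 over the identifiers with the same range of totals. On the tested transcripts, mostly with more counts, the prior count weighs less. In none of the 73 did the nest groups fail to overlap, while allospecific workers all lay above conspecific ones in 1.03% of the identifiers in that range, and below them in 1.15%.

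Foundresses trained to faces and to patterns could not be compared for single members, with 8 or fewer counts over 8 libraries. Summed over the members, foundresses trained to patterns had 256 counts, 52 to 69 per wasp, and foundresses trained to faces 228, 40 to 73 per wasp.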

How the data were processed

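Brain RNA of 16 wasps was sequenced, with 1 library each. Per the labels' protocols, libraries were made from total RNA with an Illumina TruSeq kit, and the submitters' processing notes name Trimmomatic 0.32, Bowtie2 and eXpress. The counted transcript set, strand and handling of shared reads were not given in the sources used here. Without normalization, the authors deposited whole-number counts per transcript identifier; they may be rounded estimates. Columns were joined to groups by the wasp number in the sample titles.

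Totals ran from 14949149 to 22832434 counts per library. CPM values are counts over the library total. Tests used edgeR 4.0.16 in R 4.3.3 (quasi-likelihood F test, robust, TMM factors 0.853 to 1.08, filterByExpr with a minimum count of 10, all 16 wasps in 1 fit with 12 residual degrees of freedom), with Benjamini-Hochberg adjustment over 55226 transcripts. The fit was tested on simulated data, with changes placed only in transcripts of higher counts than any member, so detection in the members was not tested. Log2 CPM differences used a prior count of 2. DESeq2 1.42.0, limma 3.58.1 voom, other filters, other limits and leaving out each wasp were alternatives. Replicates are separate wasps, and wasp numbers pair no samples. Members and lists were chosen with earlier results of these data known. Intervals cover counting error only.

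The rule for names, with no gene names to be had, was the 2 members of highest median worker CPM and, for the nests, up to 2 tested members in each direction, which were the same 2.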

Additional observations from a re-analysis of the deposited data

Results flagged for a closer look

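Among 28 groups of 4 values examined (sums over the members in each group, and the 8 uneven members in each worker group), 3 held a wasp far from the rest of its group. Chance marks about 1 in 20 groups, but that share does not apply to the 16 groups of the uneven members, which were chosen for their spread among workers and hold 2 of the 3. MW42 stood at 1.10 CPM for the member of rank 7, against 0 to 0.114 CPM in the other 3 conspecific workers, and at 3.30 CPM for the member of rank 16, against 0 to 0.201 CPM. Both members were next highest in MW47. MW21 stood at 7.24 CPM for the sum of the 65 even members, against 9.28 to 9.63 CPM in the other 3 conspecific workers.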

How the results depend on the processing

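Membership depended strongly on the limits of the rule. The count of 73 moved to 7 with a foundress limit of 4, to 690 with a limit of 16, to 4 with 5 counts required in a worker, to 5 with 6 of 8 workers and to 0 with all 8 workers. Leaving out 1 wasp gave 39 (without MW25 or without MW40) to 150 (without M15); every foundress left out raised it to at least 110, because the sum then covers 7 wasps, and leaving out MW42, MW41, MW30 or MW32 gave 40 to 47. Thinning gave 105.

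Calls between nests were 0 under 15 alternatives and 1 under DESeq2. The nest log2 fold change of PmetTSAr2.0-105311 ranged from -2.02 (without MW41) to -0.23, and that of PmetTSAr2.0-008229 from -1.76 (without MW41) to 0.093 (without MW47, the only change of sign). The median nest difference over the members ranged from -0.15 to -0.01. Without the most abundant member, the summed worker level was 12.7 CPM, against 14.7.

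Calls between workers and foundresses over all transcripts, which support nothing about the members, numbered 2031, 3294 by DESeq2, and 1034 (without M1) to 2527 (without M79) with 1 wasp left out; they also fell by more than 1.5 times without M30, M91, MW25, MW41 or MW42 (1077 to 1337). No paired analysis was possible because the wasp numbers pair no samples. Most members have so few counts that changes under several fold could go undetected in them, although detection was not tested.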
